A study of Mus musculus with 12 samples.

Results

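The 10 genes described here encode the enzymes that make nitric oxide from arginine and those that supply arginine or compete for it: Nos2, Gch1, Ass1, Asl, Arg1, Arg2, Slc7a1, Slc7a2, Ddah1 and Odc1. They were taken by name from 51707 mouse genes, and all 10 were found. The list was chosen by the counts of 1 comparison, being drawn up around Nos2 after its difference between BIGH3 treated and control differentiated cells was known. Every comparison that holds the differentiated BIGH3 libraries is therefore a description for these 10 genes, with no test. The comparisons that do not hold them were tested. One of these, differentiation in control cells, uses the differentiated control libraries that the choice also used. Its p-values are therefore not independent of the choice. Of the 10, 8 had enough reads to be fitted, and Arg1 and Arg2 did not. Nos2 reached the read level of that filter in all 3 differentiated BIGH3 libraries, in 2 differentiated control libraries and in no undifferentiated library, so it was fitted only because of the group in which it was high.

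The libraries came from wild-type mouse cells of 1 line, labelled MLO-Y4, an osteocyte-like line grown on rat tail collagen I at 0.15 mg/mL. Undifferentiated control and undifferentiated BIGH3 cells, and differentiated control and differentiated BIGH3 cells, gave 3 libraries each. BIGH3 is the secreted matrix protein made by the Tgfbi gene, added here as recombinant human protein at a dose and for a time not given in the sources used here; what the controls received is likewise not given. Both differentiated groups had medium with ascorbic acid (50 µg/mL), β-glycerophosphate (4 mM) and fetal bovine serum (10%). The labels list these for no undifferentiated group, so state and medium cannot be told apart. Data names begin with MC3 rather than the labelled line, and replicates are not said to be separate cultures, so a p-value measures the spread between these libraries, which may be technical.

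Arginine enters cells through cationic amino acid transporters, of which Slc7a1 encodes the widespread form and Slc7a2 an inducible one. Nitric oxide synthases turn it into nitric oxide and citrulline with the cofactor tetrahydrobiopterin, whose synthesis starts with the enzyme of Gch1, and Ass1 and Asl encode the enzymes that turn citrulline back into arginine. Arginases (Arg1, Arg2) instead cut it to urea and ornithine, from which ornithine decarboxylase (Odc1) makes the first polyamine. Ddah1 encodes an enzyme that clears methylated arginines, which are natural inhibitors of nitric oxide synthases. In bone, nitric oxide is known as a signal that osteocytes release on mechanical loading and that inflammatory cytokines induce through Nos2.

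Depth was 19014492 to 27612155 estimated reads per library. Undifferentiated control 2, differentiated control 2 and differentiated BIGH3 3 were highest in a list of liver genes. Their Afp, encoding alpha-fetoprotein, stood at 15.8 to 47.0 TPM (a share of all transcripts, corrected for length). Undifferentiated BIGH3 1 had 8.25 TPM of Afp and the other libraries 0.879 to 2.39 TPM. The liver-rich libraries named later are the first 3, or these and undifferentiated BIGH3 1. The list summed to 102.7, 38.35 and 55.9 TPM in the first 3. It summed to 20.9 TPM in undifferentiated BIGH3 1 and 21.72 TPM in differentiated BIGH3 1. Of 19 liver genes found, 9 stayed below 1 TPM in every library, among them Alb (at most 0.275 TPM). Of 16 osteoblast and osteocyte genes, Spp1, encoding osteopontin, stood at 10180 to 10620 TPM in differentiated BIGH3, 3012 to 3150 TPM in differentiated control and 2062 to 2162 TPM in undifferentiated libraries, and Col1a2, a collagen I chain, at 1464 to 2242 TPM in all 12. Dmp1 was present at 16.1 to 44.6 TPM, whereas the late osteocyte markers Fgf23 and Sost were at 0 and at most 0.228 TPM. That list summed to 4925 to 5939 TPM in the other 3 groups and to 12450 to 12990 TPM in differentiated BIGH3 libraries. The sum rose through Spp1. Of the 13 tested genes 4 were called higher and 9 lower with BIGH3 in differentiated cells (22.6% and 22.9% of all genes). Col1a2, Alpl, Bglap and Phex were among the lower. Besides Spp1, Dmp1 stood at 36.0 to 44.6 TPM in differentiated BIGH3 and 16.1 to 17.1 TPM in differentiated control libraries. Pdpn stood at 201 to 216 TPM and 136 to 143 TPM in these 2 groups. The part of this list in the results was not tested. The erythroid and endothelial lists summed to at most 1.68 and 2.86 TPM.

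Nos2 encodes the inducible nitric oxide synthase (ENSMUSG00000020826.8, GRCm38 chromosome 11, 78920787 to 78960254, plus strand). In undifferentiated cells it was close to absent, with 6, 3 and 6 reads in the control libraries and 2, 5 and 6 with BIGH3. Differentiated control libraries held 19, 12 and 8 reads, or 0.785, 0.566 and 0.366 CPM (counts per library size after scaling). Differentiated BIGH3 libraries held 1431, 1146 and 1148 reads, or 65.2, 61.3 and 64.2 CPM. All 3 of these libraries lay far above the other 9, and they differed little among themselves (63.6 ± 2.1 CPM, SD, n = 3). The log2 fold change against differentiated control was 6.77 ± 0.16 (SE), or 109-fold, and against undifferentiated BIGH3 cells it was 8.38 ± 0.18. The first of these ranged from 6.15 to 7.07 over the alternative settings other than log2(TPM + 1) and the second from 6.71 to 8.65. On log2(TPM + 1), a scale that understates the change of a gene near 0, they were 4.05 and 4.16.

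In undifferentiated cells the Nos2 reads were too few to show whether BIGH3 made a difference. The log2 fold change was -0.12 ± 0.46, with a wide 95% interval of -1.08 to 0.85 (edgeR adjusted p = 1). In control cells all 3 differentiated libraries lay above all 3 undifferentiated ones, with a log2 fold change of 1.497 ± 0.36 (edgeR adjusted p = 0.0013). That value rests on 39 reads against 15. In a fit of these groups alone Nos2 did not pass the filter, and the call was lost on log2(TPM + 1) (0.11, limma adjusted p = 0.316) and log2(TPM + 0.1) (0.54, limma adjusted p = 0.0931). In differentiated libraries every Nos2 read was assigned to the transcript Nos2-201. In undifferentiated libraries the reads of 5 of 6 went to Nos2-203 instead, at 2 to 6 reads each.

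Nos2 is also a gene of activated macrophages and neutrophils. Of 15 macrophage markers, 13 stayed below 1 TPM in every library, among them Adgre1 (at most 0.260 TPM), Csf1r (0.443) and Ptprc (0.439), and C1qc and Tyrobp were at 0. The summed level of that list was 50.3 to 59.5 TPM in differentiated control and 57.4 to 65.8 TPM in differentiated BIGH3 libraries, against 35.4 to 42.7 TPM in undifferentiated ones. Most of it was Lyz2, the lysozyme gene, at 45.2 to 51.4 TPM in differentiated control and 38.1 to 42.95 TPM in differentiated BIGH3 libraries, where it was called lower, while Cd14, the endotoxin coreceptor, stood at 18.5 to 22.2 TPM in differentiated BIGH3 and 4.40 to 6.41 TPM in differentiated control libraries. The 8 neutrophil markers summed to 6.36 to 10.4 TPM in differentiated BIGH3 against 1.86 to 2.59 TPM in differentiated control libraries, most of it S100a8, and 6 of the 8 stayed below 1 TPM. Against differentiated control libraries, Cd14 and S100a8 were thus higher and Lyz2 lower in differentiated BIGH3 libraries, where Nos2 was high. Lyz2 stood lower still in undifferentiated libraries, at 30.4 to 33.2 TPM in control and 27.5 to 31.2 TPM with BIGH3. The part of these genes in the result was not tested.

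**Figure D1:**
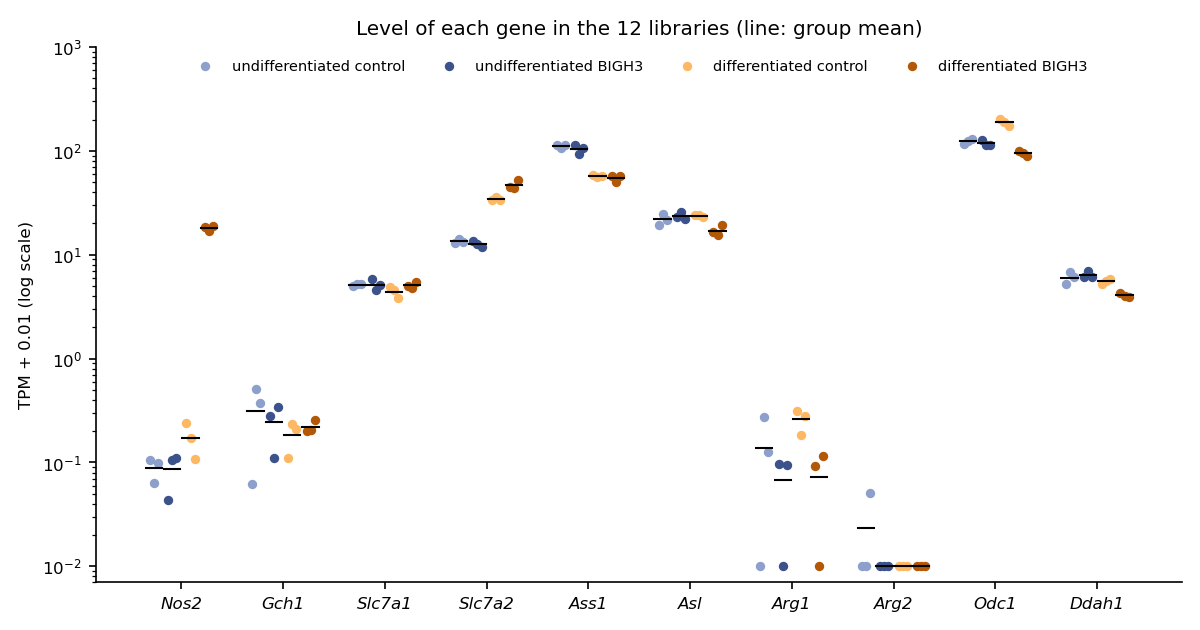
Level of each of the 10 genes in the 12 libraries (y axis, TPM + 0.01 on a log scale; points are libraries, coloured by group, and lines are group means of 3). Nos2 stands at 17.1 to 18.97 TPM in differentiated BIGH3 libraries and at 0.228 TPM or less in the other 9, while Gch1, Arg1 and Arg2 stay below 1 TPM in all 12.

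Gch1 encodes GTP cyclohydrolase, the first enzyme of tetrahydrobiopterin synthesis (ENSMUSG00000037580.10, chromosome 14, 47153895 to 47189413, minus strand). It was barely detected, with 2, 22 and 18 reads in undifferentiated control, 12, 4 and 15 in undifferentiated BIGH3, 5, 10 and 10 in differentiated control and 9, 8 and 9 in differentiated BIGH3 libraries. The groups overlapped, and the highest value was in the library with most liver transcripts. In differentiated cells the log2 fold change with BIGH3 was 0.24 ± 0.62. The tested differences were -0.33 ± 0.58 for BIGH3 in undifferentiated cells (edgeR adjusted p = 1) and -0.54 ± 0.59 for differentiation (edgeR adjusted p = 0.457), with intervals of -1.54 to 0.88 and -1.78 to 0.70. Differentiated BIGH3 libraries thus held 77.6 to 97.1 times as much Nos2 as Gch1 by TPM, against 0.492 to 2.29 times in differentiated control libraries.

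The transporters behaved differently from each other. Slc7a1 (ENSMUSG00000041313.14, chromosome 5, 148327410 to 148399904, minus strand) was nearly flat. Its level was 25.3, 25.7 and 25.6 CPM in undifferentiated control, 29.4, 24.2 and 26.4 in undifferentiated BIGH3, 28.2, 27.4 and 24.4 in differentiated control and 29.7, 29.6 and 28.3 in differentiated BIGH3 libraries. Neither tested difference was called: 0.06 ± 0.08 for BIGH3 in undifferentiated cells (interval -0.10 to 0.22) and 0.06 ± 0.08 for differentiation (interval -0.10 to 0.22), the latter turning to -0.19 on log2(TPM + 1) without being called. The log2 fold change with BIGH3 in differentiated cells was 0.13 ± 0.08.

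Slc7a2 (ENSMUSG00000031596.15, chromosome 8, 40862396 to 40922308, plus strand) stood at 65.9, 71.1 and 63.2 CPM in undifferentiated control and 69.6, 72.0 and 65.9 CPM in undifferentiated BIGH3 libraries. Differentiated control libraries had 197, 208 and 217 CPM and differentiated BIGH3 libraries 276, 276 and 307 CPM. These are 3 separate tiers: both undifferentiated groups together, then differentiated control, then differentiated BIGH3. Differentiation raised it 3.11-fold in control cells, by 1.64 ± 0.06 on the log2 scale (edgeR adjusted p = 3.32e-15). BIGH3 in undifferentiated cells made a difference of 0.05 ± 0.06 (interval -0.07 to 0.18, edgeR adjusted p = 1). In differentiated cells the BIGH3 libraries stood 1.38-fold higher, at 0.46 ± 0.06. By TPM, the ratio of Slc7a2 to Slc7a1 was 2.53 to 2.73 in undifferentiated control, 6.89 to 8.87 in differentiated control and 8.97 to 9.54 in differentiated BIGH3 libraries. A long noncoding gene on the opposite strand, Gm26584, overlaps the start of Slc7a2, and the strand of the reads is not given in the sources used here.

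Slc7a2 makes alternative transporters by using 1 of a pair of mutually exclusive coding exons, which are shown because they decide which transporter is made. Both were read from GRCm38 on the plus strand, at chr8:40908056-40908195 (upstream exon, 140 bases, transcripts Slc7a2-202 and Slc7a2-203) and chr8:40908398-40908534 (downstream exon, 137 bases, Slc7a2-201 and Slc7a2-204). Aligned end to end they are identical in 84 of 140 columns (60.0%), and capitals mark the bases that differ.
Upstream exon: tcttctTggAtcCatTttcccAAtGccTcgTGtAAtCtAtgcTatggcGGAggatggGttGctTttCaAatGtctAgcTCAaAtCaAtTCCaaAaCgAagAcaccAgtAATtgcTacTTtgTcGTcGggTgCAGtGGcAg
Downstream exon: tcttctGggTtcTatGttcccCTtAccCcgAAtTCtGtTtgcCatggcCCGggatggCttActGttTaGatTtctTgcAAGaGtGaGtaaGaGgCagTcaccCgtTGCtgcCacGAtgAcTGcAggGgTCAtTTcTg

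Transcripts with the upstream exon prevailed in every library. The downstream exon was carried by 20.0, 5.43 and 14.4% of the TPM of transcripts with either exon in undifferentiated control, 10.5, 10.4 and 11.3% in undifferentiated BIGH3, 12.7, 12.4 and 8.62% in differentiated control and 14.5, 14.2 and 17.9% in differentiated BIGH3 libraries. All 3 differentiated BIGH3 libraries lay above the differentiated control ones, by 4.29 percentage points on average. The tested differences were -2.55 points for BIGH3 in undifferentiated cells and -2.02 points for differentiation in control cells. Each had overlapping groups and p = 0.7 in an exact two-sided permutation test, before and after adjustment over both, where 3 against 3 cannot go below 0.1. As a level, transcripts with the downstream exon stood at 3.77 ± 0.82 TPM in differentiated control and 7.18 ± 1.6 TPM in differentiated BIGH3 cells, and those with the upstream exon at 29.7 ± 0.79 and 38.7 ± 2.4 TPM (SD, n = 3). The split comes from the authors' model of shared reads, since both forms have most of their sequence in common.

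**Figure D2:**
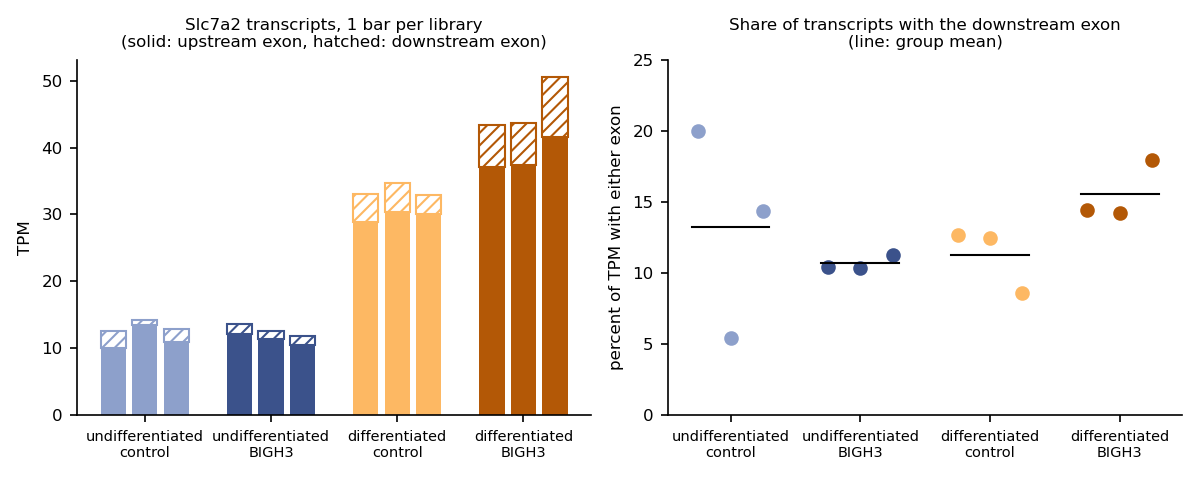
Slc7a2 transcripts by mutually exclusive exon. Left, TPM per library (y axis; solid, upstream exon; hatched, downstream exon); right, the downstream exon's percent of the TPM with either exon (points are libraries, lines are means of 3). Upstream-exon transcripts stand at 10.1 to 13.5 TPM in undifferentiated libraries and 37.2 to 41.5 TPM in differentiated BIGH3 libraries, and the downstream share spans 14.2 to 17.9% there.

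Ass1 and Asl, the citrulline recycling pair, did not move together. Ass1 encodes argininosuccinate synthase, usually taken as the limiting step (ENSMUSG00000076441.9, chromosome 2, 31470207 to 31520672, plus strand). It stood at 118, 114 and 113 CPM in undifferentiated control and 116, 105 and 121 CPM in undifferentiated BIGH3 libraries. Differentiated control libraries had 72.2, 73.3 and 77.3 CPM and differentiated BIGH3 libraries 70.1, 67.2 and 70.5 CPM. All 6 differentiated libraries lay below all 6 undifferentiated ones. Differentiation lowered it 1.55-fold in control cells, by -0.63 ± 0.05 on the log2 scale (edgeR adjusted p = 1.78e-09). BIGH3 made a difference of -0.01 ± 0.05 in undifferentiated cells (interval -0.11 to 0.10, edgeR adjusted p = 1), and in differentiated cells the value was -0.10 ± 0.05.

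Asl encodes argininosuccinate lyase (ENSMUSG00000025533.15, chromosome 5, 130011258 to 130029247, minus strand). Its level was 22.5, 26.6 and 23.5 CPM in undifferentiated control, 23.8, 24.7 and 24.4 in undifferentiated BIGH3, 29.97, 29.5 and 31.2 in differentiated control and 22.6, 20.9 and 23.8 in differentiated BIGH3 libraries. Differentiated control libraries were above all others, and the 3 differentiated BIGH3 libraries fell within or below the undifferentiated range. Differentiation in control cells raised Asl by 0.32 ± 0.07 on the log2 scale (edgeR adjusted p = 0.000912). That call was lost with library totals as the scale (0.17, edgeR adjusted p = 0.0597) and on log2(TPM + 1) (0.12, limma adjusted p = 0.316). With BIGH3 in differentiated cells the log2 fold change was -0.43 ± 0.08, and in undifferentiated cells 0.00 ± 0.07 (interval -0.15 to 0.16, edgeR adjusted p = 1). The TPM ratio of Ass1 to Asl was 4.34 to 5.84 in undifferentiated control, 2.35 to 2.49 in differentiated control and 2.93 to 3.51 in differentiated BIGH3 libraries.

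The arginases were at the limit of detection. Arg1 (ENSMUSG00000019987.9, chromosome 10, 24915221 to 24927484, minus strand), the liver and macrophage arginase, had 0, 6 and 3 reads in undifferentiated control, 2, 0 and 2 in undifferentiated BIGH3, 8, 4 and 7 in differentiated control and 2, 0 and 2 in differentiated BIGH3 libraries. Arg2 (ENSMUSG00000021125.6, chromosome 12, 79130777 to 79156301, plus strand), the mitochondrial arginase, had 1 read in all 12 libraries together. Its 3′ end overlaps Vti1b on the other strand, which had 14607.5 estimated reads. In a fit without the low-count filter Arg1 was called in neither tested comparison, with log2 values of -1.01 for BIGH3 in undifferentiated cells (edgeR adjusted p = 0.913) and 1.20 for differentiation in control cells (edgeR adjusted p = 0.449), and at this depth a difference would be hard to detect. Otc, another urea cycle gene of liver, had 25 of its reads in undifferentiated control 2 and 10 in differentiated control 2. Both libraries were high in the liver list, and the other 10 had 0 to 5 Otc reads.

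Odc1 encodes ornithine decarboxylase (ENSMUSG00000011179.8, chromosome 12, 17544794 to 17551505, plus strand) and was the most abundant of the 10 genes by TPM in every group. It stood at 154, 160 and 169 CPM in undifferentiated control, 165, 156 and 157 in undifferentiated BIGH3, 322, 305 and 300 in differentiated control and 161, 155 and 138 in differentiated BIGH3 libraries. Differentiated control libraries thus had nearly double the level of the other 3 groups, which overlapped. Differentiation raised it 1.92-fold in control cells, by 0.94 ± 0.06 on the log2 scale (edgeR adjusted p = 1.18e-11). BIGH3 made a difference of -0.02 ± 0.06 in undifferentiated cells (interval -0.13 to 0.10, edgeR adjusted p = 1), and differentiated BIGH3 cells stood 2.04-fold below differentiated control cells, at -1.03 ± 0.06. Since these values are from bulk RNA, a change in the number of cells with the transcript and in the amount per cell cannot be told apart, here and for the other genes.

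Ddah1 (ENSMUSG00000028194.15, chromosome 3, 145758675 to 145894277, plus strand) stood at 13.0, 16.5 and 14.6 CPM in undifferentiated control, 14.2, 17.2 and 14.5 in undifferentiated BIGH3, 14.6, 16.2 and 17.6 in differentiated control and 12.8, 11.6 and 11.2 in differentiated BIGH3 libraries. Each differentiated BIGH3 library was below each of the other 9. The log2 fold change with BIGH3 was -0.44 ± 0.11 in differentiated and 0.05 ± 0.10 in undifferentiated cells (interval -0.16 to 0.27, edgeR adjusted p = 1). Differentiation in control cells made a difference of 0.13 ± 0.10 that was not called (edgeR adjusted p = 0.289) and turned to -0.10 on log2(TPM + 1). A processed pseudogene within Ddah1 on the same strand, Rpl36a-ps2, had 26875.2 estimated reads of its own.

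Counted together, none of the 8 fitted genes was called for BIGH3 in undifferentiated cells, where 0.0204% of all 14711 fitted genes were called; no member had an unadjusted p below 0.05, and DESeq2 called none of them either. The differentiation comparison in control cells called 5 of 8, against 57.7% of all genes, with 4 higher (29.1% of all genes) and 1 lower (28.6%). With the compared groups alone, where Nos2 was not fitted, 4 were called. Libraries of the compared groups did not overlap for 0 of 8 genes with BIGH3 in undifferentiated cells (8.96% of all genes) and for 5 of 8 with differentiation in control cells (63.4%). For the comparisons used in choosing the list, the counts were 5 of 8 for BIGH3 in differentiated cells (45.5% of all genes), 4 of 8 for differentiation in BIGH3 treated cells (56.6%) and 5 of 8 for the interaction, the difference between the BIGH3 effects of the states (32.2%). Libraries did not overlap for 7 of 8 and 4 of 8 in the first and second of these (55.1% and 62.6% of all genes), and nothing is read from these counts. The differentiation comparison in control cells and the BIGH3 comparison in differentiated cells share the differentiated control libraries. Library totals in place of TMM scaling moved the median of all genes by -0.15 for differentiation in control cells, and log2(TPM + 1) moved it by -0.28.

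**Figure D3:**
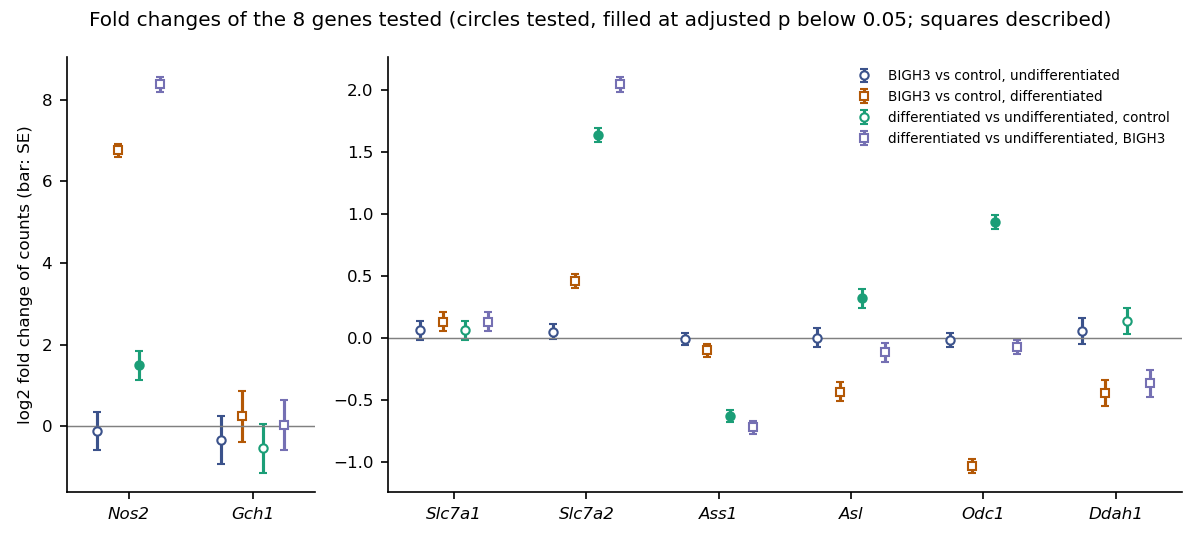
Log2 fold changes of counts for the 8 fitted genes (y axis; bars are SE; Nos2 and Gch1 on a wider scale at left). Circles were tested and are filled where the adjusted p was below 0.05, and squares are descriptions. BIGH3 in undifferentiated cells lies within 1 SE of 0 for every gene shown, whereas with BIGH3 in differentiated cells Nos2 stands at 6.77 and Odc1 at -1.03.

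The order of levels by TPM was led by Odc1 in every group. In undifferentiated control cells it was followed by Ass1 (111 ± 4.0 TPM), Asl (21.9 ± 2.5), Slc7a2 (13.4 ± 0.73), Ddah1 (6.003 ± 0.75) and Slc7a1 (5.14 ± 0.12), with the libraries of neighbouring genes not overlapping. In undifferentiated BIGH3 cells the order was the same down to Gch1, with Odc1 and Ass1 overlapping. In differentiated control cells Slc7a2 (34.4 ± 1.6 TPM) stood above Asl (23.8 ± 0.77). In differentiated BIGH3 cells the order was Odc1 (94.3 ± 5.3 TPM), Ass1 (54.9 ± 3.9), Slc7a2 (46.9 ± 4.3), Nos2 (18.2 ± 0.99), Asl (17.1 ± 2.0), Slc7a1 (5.06 ± 0.34) and Ddah1 (4.07 ± 0.21). There Ass1 overlapped Slc7a2 and Nos2 overlapped Asl.

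Promoter windows from RefSeq (GRCm38.p6, 250 bases before to 50 after the start) were at hand for 5 of the 10 genes, namely Ass1, Ddah1, Slc7a1, Odc1 and Gch1. Those of Odc1 and Ass1 are shown because differentiation changed these genes in opposite directions in the tested comparison. The motifs searched, on both strands, were the E-box CACGTG, the GC box GGGCGG, the CCAAT box, the TATA-like letters TATAA, the cyclic AMP half-site TGACG, the AP-1 site TGANTCA, the C/EBP site TTNNGNAA, the composite site TGATGNAA and the kappa-B consensus. Capitals mark GC boxes and the TGACG in Odc1 (chr12:17544623-17544922, plus strand) and the GC box and E-box in Ass1 (chr2:31470020-31470319, plus strand), and none of the marked motifs overlap.
Odc1: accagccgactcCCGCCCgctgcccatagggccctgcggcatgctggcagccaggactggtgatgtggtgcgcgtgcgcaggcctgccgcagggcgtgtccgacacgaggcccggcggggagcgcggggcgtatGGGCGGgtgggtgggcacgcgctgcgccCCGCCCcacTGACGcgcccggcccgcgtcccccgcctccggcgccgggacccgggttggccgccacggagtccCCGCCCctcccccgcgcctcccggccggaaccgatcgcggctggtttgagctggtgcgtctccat
Ass1: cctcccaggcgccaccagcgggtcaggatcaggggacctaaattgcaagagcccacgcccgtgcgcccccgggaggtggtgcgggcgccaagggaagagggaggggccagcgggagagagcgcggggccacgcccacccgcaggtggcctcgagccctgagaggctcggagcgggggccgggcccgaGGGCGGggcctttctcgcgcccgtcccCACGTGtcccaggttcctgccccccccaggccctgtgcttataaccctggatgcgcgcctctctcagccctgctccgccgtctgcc
Odc1 holds 4 GC boxes, and 35.7% of the 32851 windows hold at least 1. It also holds the TGACG found in 20.8% of windows, and Ass1 the E-box found in 7.2%. Ass1 has TATAA matches just past the RefSeq start, and neither window has a match to AP-1, C/EBP, the composite site or kappa-B. For both genes the RefSeq start lies downstream of the gene start given above, so positions relative to the start depend on the annotation. Of the 5 genes, only Gch1 has a match to the kappa-B consensus (8.5% of windows). These matches describe letters, not binding.

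Genes with the most similar profile were taken as those with the smallest mean absolute difference in centred log2 CPM over the 12 libraries, among 10790 genes. For Nos2 these were Hp (0.31), Lcn2 (0.62), Saa3 (0.74), Grem1 (1.33) and Serpina3f (1.35), where Nos2 itself varied with an SD of 3.43. Hp, Lcn2 and Saa3 encode haptoglobin, a siderophore-binding protein and serum amyloid A, all acute phase proteins. For Slc7a2 they were Postn (0.10), Angpt1 (0.11) and Mitf (0.12), for Odc1 Rgs10 (0.05), Man2b2 (0.07) and Sdc3 (0.07), and for Ass1 Ank3, Rhobtb3 and Mtmr12 (each 0.05). Asl was closest to Prkra, Mccc2 and Rabgap1l, Ddah1 to Rasa1, Chrdl1 and Zfp930, and Slc7a1 to Snd1, Psmd5 and Mid1ip1. Gch1 was barely detected, so its likeness to other genes is uncertain. Its nearest were Zfp764 (0.37), Pald1 (0.42) and Rnf130 (0.43), where Gch1 itself had an SD of 0.68. The libraries of a group share the differences that set these profiles, so likeness over 12 libraries rests largely on 4 group means.

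The 67 other genes of the pathway, in 6 lists, gave 52 that could be tested. With BIGH3 in undifferentiated cells edgeR called none of them, 2 had an unadjusted p below 0.05, and DESeq2 also called none. In differentiated cells BIGH3 raised 7 (22.6% of all genes rose) and lowered 20 (22.9% fell), so that 51.9% were called against 45.5% of all genes, with a median log2 fold change of -0.14 against -0.01 for all genes. In control cells, differentiation raised 21 and lowered 6, 51.9% against 57.7% of all genes, with a median of 0.18 against -0.01. The difference between the BIGH3 effects of the states was called for 20 of 52 (5 higher and 15 lower, where 16.2% and 16.0% of all genes were), 38.5% against 32.2%. Among the genes named here, every alternative setting kept the call for 13 of 18 with BIGH3 in differentiated cells, the exceptions being Nosip, Pts, Slc7a6, Prmt3 and Aldh18a1. For differentiation in control cells it was 15 of 19, the exceptions being Prkg1, Prmt7, Sat1 and Pycr1, each lost on log2(TPM + 1) and log2(TPM + 0.1).

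Of 8 genes of the nitric oxide synthase list tested, BIGH3 raised 1 and lowered 4 in differentiated cells (22.6% of all genes rose and 22.9% fell). Nos1, the neuronal synthase, stood lower with BIGH3 in differentiated cells. It had 19, 18.0 and 18.6 CPM in differentiated control and 5.15, 6.10 and 3.92 CPM in differentiated BIGH3 libraries. This was a fall of 1.87 ± 0.13 on the log2 scale (edgeR adjusted p = 2.93e-10). In control cells differentiation raised Nos1 by 1.76 ± 0.13 (edgeR adjusted p = 3.64e-10), and the interaction of -1.70 was close in size to that rise. In undifferentiated control cells, where Nos2 was close to absent, Nos1 was thus also lower than in differentiated control cells. By TPM, Nos1 stood at 2.23 ± 0.025 and Nos2 at 0.163 ± 0.065 in differentiated control cells, and at 0.617 ± 0.17 and 18.2 ± 0.99 in differentiated BIGH3 cells. Nos3, the endothelial synthase, stayed at 0.111 to 0.166 TPM in the group means and was not called. Calm2, a calmodulin gene whose product activates the synthases, rose by 0.31 on the log2 scale with BIGH3. Nosip, encoding a protein that interacts with Nos3, fell by 0.39, and Gucy1b1, a subunit of the nitric oxide receptor, had 1 read in all libraries.

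In the tetrahydrobiopterin list BIGH3 raised 1 and lowered 3 of 6 tested genes in differentiated cells (22.6% of all genes rose and 22.9% fell). Qdpr, which recycles the cofactor, fell by 0.42, and the synthesis enzymes Pts and Spr fell by 0.31 and 0.30 on the log2 scale. In control cells differentiation raised Qdpr (0.50 on the log2 scale).

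Among urea cycle and transport genes, BIGH3 in differentiated cells raised Slc7a6, an amino acid exchanger, by 0.26 on the log2 scale (edgeR adjusted p = 0.00981), and none of the other 6 tested was called. That is 14.3% called, against 45.5% of all genes. In control cells differentiation raised Slc7a7, a cationic amino acid exporter subunit, by 1.42, the ornithine carrier Slc25a15 by 0.64 and the arginine sensor Castor1 by 0.64. It lowered Slc7a3, a further cationic transporter, by a log2 change of -1.75, from 1.86 ± 0.26 to 0.549 ± 0.13 CPM. Slc7a9 had 0 reads in every library.

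Of 13 genes for arginine methylation, clearance of methylarginines and other arginine use, BIGH3 raised 1 and lowered 4 in differentiated cells. That is 38.5% called, against 45.5% of all genes (22.6% higher and 22.9% lower). Carm1, an arginine methyltransferase, rose by 0.31 and Prmt3, another, fell by 0.25. Gamt, the second enzyme of creatine synthesis, fell by 0.79. Agxt2, a mitochondrial enzyme that also clears methylarginines, fell by 3.23 ± 0.60 (edgeR adjusted p = 0.000169), from 27, 12 and 29 reads to 3, 1 and 2. Ddah2, the relative of Ddah1, was not called (-0.12 ± 0.12, edgeR adjusted p = 0.452). With differentiation in control cells Padi2, which turns arginine in proteins into citrulline, rose 5.30-fold to 2.43 ± 0.68 CPM, Gamt rose by 0.81, Prmt7 by 0.43, and Carm1 fell by 0.56. Prmt8 had 0 reads.

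In the polyamine list 7 of 13 tested genes fell and 1 rose with BIGH3 in differentiated cells, where 22.9% and 22.6% of all genes did. The synthase list had 4 of 8 and the tetrahydrobiopterin list 3 of 6 lower. The antizyme genes Oaz1 and Oaz2, whose products mark ornithine decarboxylase for degradation, fell together with the lower Odc1. Oaz1 stood at 181, 171 and 168 CPM in differentiated control and 95.6, 91.6 and 92.1 CPM in differentiated BIGH3 libraries, a fall of 0.90 ± 0.06 on the log2 scale (edgeR adjusted p = 2.67e-11), and Oaz2 fell by 0.53. Spermine synthase (Sms) fell by 0.49 and Amd1, which makes the aminopropyl donor, by 0.29; Amd1 has a near-identical copy, Amd2, so its reads are uncertain. Azin1, the antizyme inhibitor, was not called (-0.06 ± 0.05, edgeR adjusted p = 0.411). Among the same 13, differentiation in control cells raised 5 and lowered none, among them Oaz2 (0.63), Srm, spermidine synthase (0.56), Oaz1 (0.48) and Sat1 (0.31). That is 38.5% called, fewer than the 57.7% of all genes (29.1% higher and 28.6% lower).

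In the ornithine and proline list BIGH3 raised 2 and lowered 2 of 5 tested genes in differentiated cells (22.6% of all genes rose and 22.9% fell). Oat, which links ornithine to glutamate semialdehyde, rose by 0.21. Aldh4a1, which acts in proline breakdown, fell by 0.51 and Aldh18a1, the first step of proline synthesis, by 0.27. Differentiation in control cells raised Pycr1 by 0.71 and Aldh18a1 by 0.57 and changed Oat by -0.16.

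Differentiation of BIGH3 treated cells was tested for the same 52 genes, and 16 were called higher and 11 lower, 51.9% against 56.6% of all genes. Padi2 rose by 1.53 on the log2 scale, the transporter subunit Slc7a7 by 1.04, the proline synthesis enzyme Pycr1 by 0.97 and Srm by 0.58. Slc7a3 fell by 1.32 and Nosip by 0.46. In the polyamine list Sms fell by 0.45, Amd1 by 0.44 and Oaz1 by 0.41, and Azin2, a relative of Azin1, fell by 0.44. For Oaz1 the sign was thus opposite to the rise of 0.48 in control cells, and its interaction of -0.89 is the test of that difference (edgeR adjusted p = 1.43e-08).

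**Figure D4:**
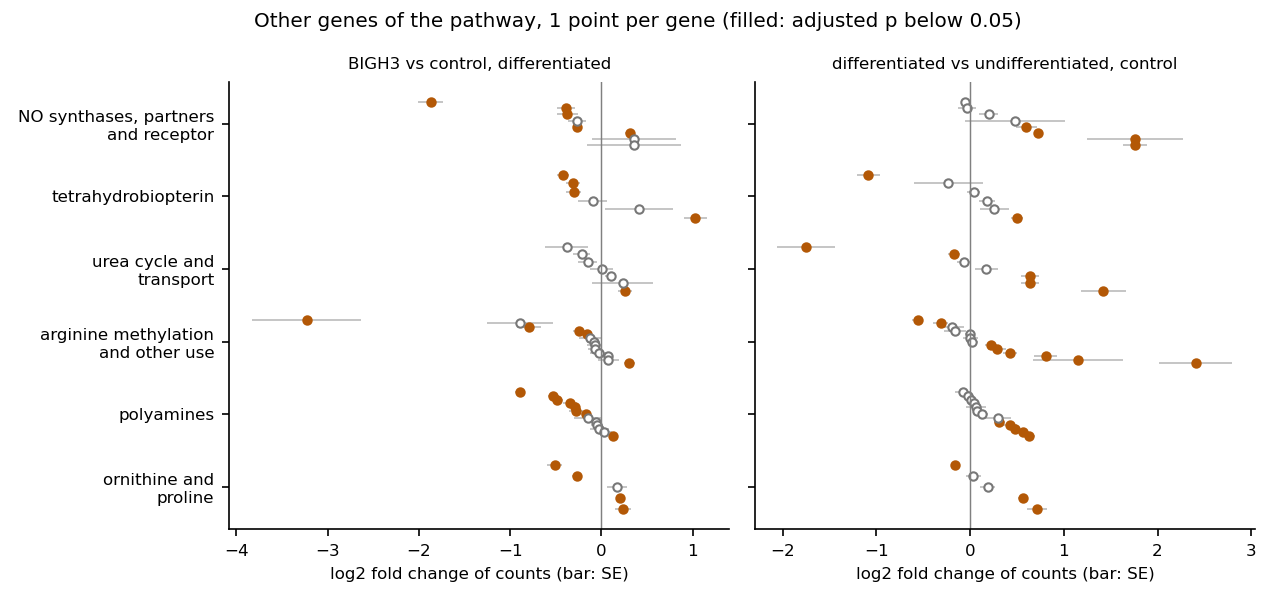
Log2 fold changes of counts for the 52 tested genes of the 6 pathway lists (x axis; bars are SE; 1 point per gene, rows are lists; filled points had an adjusted p below 0.05). With BIGH3 in differentiated cells (left) 20 of 52 were lower and 7 higher (22.9% and 22.6% of all genes). With differentiation in control cells (right) 21 were higher and 6 lower (29.1% and 28.6% of all genes). Both panels share the differentiated control libraries.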

How the data were processed

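RNA-seq of 12 libraries was deposited as 1 table per library. Per the file headers, these hold estimated read counts per transcript (expected counts, need not be whole), TPM computed by the authors, and transcript and effective lengths. Per the submitters' processing notes, FastQC, cutadapt, Salmon, StringTie and mm10 were used; versions and settings are not given in the sources used here. From the deposited tables, 137063 of 147828 transcripts (92.7%) matched GENCODE M21 (GRCm38) by identifier without version; the rest held 1.28 to 3.67% of reads and were left out. Estimated counts were summed per gene and rounded, TPM summed per gene. For the 14711 genes that passed filterByExpr, TMM scaling preceded 1 robust quasi-likelihood fit over all 12 libraries, each group a term, in edgeR 4.0.16 (R 4.3.3). Tests were two-sided, Benjamini-Hochberg over all genes fitted, called at an adjusted p below 0.05. The coefficient of biological variation was 8.18%, the median SE 0.089. CPM and TPM errors are SD, fold change errors SE, n = 3. Intervals are 95%.

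The 10 genes, the pathway and marker lists and the tests were chosen with earlier results of these data known. Named pathway genes are the up to 4 called genes of each list and comparison with the smallest adjusted p, and those under 10 reads. Nos3, Ddah2, Azin1, Otc and the marker genes other than the most abundant of each list were named after their values were seen. A few genes that the rule names are counted in their lists but not reported here. Alternatives used DESeq2 1.42.0, limma 3.58.1 on log2(TPM + 1) and log2(TPM + 0.1), other scalings, effective lengths, no filter, a replicate block and fewer libraries. The fitting script was tested on simulated data. Sequences come from GRCm38 and RefSeq.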

Additional observations from a re-analysis of the deposited data

Results flagged for a closer look

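The BIGH3 effect differed between differentiated and undifferentiated cells, by the interaction in the 12-library fit, for 5 of the 8 fitted genes. Of all 14711 fitted genes, 32.2% were called. Among the other pathway genes 20 of 52 tested were called (38.5%), and the 17 given below were named because they were called. For the 5 this is a description, because the list was chosen with that difference in view. On the log2 scale the effect in differentiated minus that in undifferentiated cells was 6.88 for Nos2, 0.41 for Slc7a2, -0.44 for Asl, -0.50 for Ddah1 and -1.01 for Odc1.

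Among synthase genes and partners the difference was -1.70 for Nos1 (edgeR adjusted p = 6.55e-07), -0.43 for Nosip and 0.21 for Calm2. In the cofactor list it was -0.45 for Qdpr and -0.29 for Pts. Transport genes gave 0.32 for Slc7a6 and -0.36 for Slc25a15. Genes of other arginine use gave 0.37 for Carm1, -0.73 for Gamt and -3.18 for Agxt2, which rests on few reads. In the polyamine list it was -0.89 for Oaz1 (edgeR adjusted p = 1.43e-08), -0.50 for Oaz2, -0.42 for Sms and -0.45 for Amd1. Proline and ornithine genes gave 0.18 for Oat, -0.25 for Aldh18a1 and -0.49 for Aldh4a1. Every alternative setting kept the call for only 7 of these 17. The exceptions were Nosip, Calm2, Pts, Slc7a6, Slc25a15, Agxt2, Sms, Oat, Aldh18a1 and Aldh4a1. Slc25a15 was close to the threshold in the main fit (edgeR adjusted p = 0.0482).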

How the results depend on the processing

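Over 23 alternative settings, 853 of 909 values of the 8 fitted genes kept direction and side of the threshold, 6 lost and 9 gained a call, and 41 changed sign, none of these called in either setting. On log2(TPM + 1), Slc7a1 became -0.001 and Slc7a2 -0.078 for BIGH3 in undifferentiated cells, Slc7a1 became -0.189 and Ddah1 -0.098 for differentiation in control cells, Gch1 became -0.025 and Slc7a1 -0.019 for differentiation in BIGH3 treated cells and Ass1 became 0.023 for the interaction. On log2(TPM + 0.1), Slc7a1 became -0.003 and Slc7a2 -0.083 for BIGH3 in undifferentiated cells, Slc7a1 became -0.225 and Ddah1 -0.112 for differentiation in control cells, Gch1 became -0.040 and Slc7a1 -0.022 for differentiation in BIGH3 treated cells and Ass1 became 0.023 for the interaction. With library totals, Asl became -0.022 for BIGH3 in undifferentiated cells, Slc7a1 became -0.087 and Ddah1 -0.017 for differentiation in control cells and Gch1 became -0.077 for differentiation in BIGH3 treated cells. With effective lengths, Slc7a2 became -0.020 for BIGH3 in undifferentiated cells. Without the 3 liver-rich libraries, Gch1 became 0.191 for BIGH3 in undifferentiated cells and Gch1 became -0.072 for differentiation in BIGH3 treated cells. Without the 4 liver-rich libraries, Nos2 became 0.008, Gch1 0.106 and Slc7a1 -0.011 for BIGH3 in undifferentiated cells and Odc1 became 0.015 for differentiation in BIGH3 treated cells. Leaving out any 1 library, the values that turned spanned Nos2 -0.393 to 0.255, Gch1 -0.800 to 0.202, Ass1 -0.052 to 0.046, Asl -0.045 to 0.078, Slc7a1 -0.017 to 0.125, Ddah1 -0.039 to 0.146 and Odc1 -0.047 to 0.021 for BIGH3 in undifferentiated cells; Gch1 -0.069 to 0.418 for BIGH3 in differentiated cells; Gch1 -0.310 to 0.380 for differentiation in BIGH3 treated cells. Called genes for BIGH3 in undifferentiated cells, 3 here, numbered 8 with DESeq2, 21 without a low-count filter, 1 on log2(TPM + 1), 0 on log2(TPM + 0.1), 1 with effective-length offsets, 0 with the compared groups alone, 1 when the 3 liver-rich libraries were left out, 5 with 4 left out and 0 to 3 without any 1 library. For differentiation in control cells, 3 of the 8 genes instead of 5 were called on log2(TPM + 1) and on log2(TPM + 0.1). For the interaction, 20 other pathway genes became 10 on log2(TPM + 1), 11 on log2(TPM + 0.1), 13 without the 4 liver-rich libraries and 15 to 20 without any 1 library. The cause was not tested. Settings applied to each called pathway gene by itself were chosen after seeing the data. All of them kept the call for 11 of 19 named genes with differentiation in BIGH3 treated cells and 7 of 17 for the interaction. On log2(TPM + 1) and log2(TPM + 0.1) 3 values reversed, none called: Prmt3 at -0.11 and -0.12 for differentiation in control cells, and Calm2 at -0.028 on both and Sat1 at -0.036 on both for differentiation in BIGH3 treated cells. With BIGH3 in differentiated cells, Slc7a6 lost its call without differentiated control 1 (0.185) or differentiated BIGH3 1 (0.22).

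For differentiation in BIGH3 treated cells, a description for these genes, Asl was called at -0.23 with library totals, -0.26 with effective lengths and -0.45 on log2(TPM + 1), Odc1 at -0.19 with library totals and -0.32 on log2(TPM + 1), and Slc7a1 at 0.21 without undifferentiated BIGH3 1. Ddah1 lost its call at -0.28 without undifferentiated BIGH3 2. Samples share only a number: deviations of same-numbered libraries correlated at -0.22 to 0.35 (median -0.04, 18 pairs, 4 over 0.1). With a replicate block 5 of the 8 genes were called for BIGH3 in differentiated cells and 5 for differentiation in control cells, as without it, and other pathway genes called were 28 and 27. Gene sums from the largest transcript alone kept 23 of 40 group levels within 1 SD. Matching identifiers with their version was not run, since 37 transcripts match that way. Nos2 in undifferentiated cells, Gch1 and both arginases are limited by depth.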
